A study of Homo sapiens with 6 samples.

Results

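Fibroblast growth factor (FGF) receptors and their partners were examined in HCCLM3 cells, a human hepatocellular carcinoma (HCC) line, with and without overexpression of *PON1*. The set held 10 genes of the 20381 in the count table: the receptors *FGFR1*, *FGFR2*, *FGFR3* and *FGFR4*, the kinase-less receptor *FGFRL1*, the co-receptor *KLB*, the ligand *FGF19*, the FLRT proteins *FLRT2* and *FLRT3*, and the adaptor *FRS2*. They were taken from the table by their symbols. The set was chosen by gene family, with the differences between the groups in these same libraries already known, so the values of PON1-OE against NC are given for its members as a description and support no test. There were 3 libraries of cells with a lentivirus carrying the *PON1* coding sequence (PON1-OE) and 3 of negative control cells (NC), all from poly(A) RNA. Both groups were stable lines selected with puromycin, otherwise wild type per the labels. The design text of the series calls the control an empty lentiviral vector and speaks of lysis at a fixed time after transfection. Nothing in the sources used here says whether the 3 libraries of a group came from separate infections or cultures, so that SD and p-values measure the spread between libraries, which may be technical.

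FGF receptors are tyrosine kinases at the cell surface that bind FGFs together with heparan sulfate and pass the signal through the adaptor FRS2 to the RAS and MAP kinase cascade. The cascade switches on its own inhibitors, among them the Sprouty proteins and the phosphatase DUSP6. In liver the best known pair is FGFR4 with the co-receptor beta-klotho (*KLB*), which answers to FGF19 from the gut and lowers bile acid synthesis, and FGF19 with FGFR4 is known as a driver in a part of HCC. FLRT proteins are adhesion molecules that bind UNC5 receptors and latrophilins on neighboring cells and can also associate with FGF receptors.

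The totals of estimated counts were 15706672 to 17948383 per library, and 3 counts, taken as the floor, equal 0.166 to 0.192 CPM (counts scaled to the library size by the TMM method). *PON1* had counts of 0, 2 and 3 in the NC libraries and 155, 181 and 167 in the PON1-OE libraries, as the labels state. Of 12 hepatocyte markers, 8 had more than 3 counts in every library. The transcription factor gene *HNF4A* was well expressed with 1223 to 1492 counts. The serum protein genes were mixed. *TF* had 281 to 396 counts and *APOB* 60 to 106, while *ALB* had 4 to 13 and *APOA1*, *TTR* and *SERPINA1* had at most 5. *FGB* had 8 to 29 counts, *AFP* 4 to 18 and *APOA2* 0 to 8. The summed level of the hepatocyte markers was 208.9 to 215 CPM in NC and 206.8 to 218.4 CPM in PON1-OE. Of the other cell types, *PTPRC* and *CD3E* were listed at 0 and *COL1A1*, *COL3A1* and *CDH5* had at most 4 counts, while the stromal genes *LUM* and *DCN* had 191 to 264 and 58 to 107 and the cholangiocyte genes *KRT7* and *SOX9* 129 to 160 and 86 to 135. The sum of 6 fibroblast and stellate cell markers was 16.03 to 20.95 CPM in NC and 16.7 to 20.2 CPM in PON1-OE, that of 4 cholangiocyte markers 18.5 to 19.5 and 18 to 19.4 CPM. The sum of 4 endothelial markers, carried by *PECAM1* and *KDR*, was 21.9 to 24.6 CPM in NC and 25.2 to 27.8 CPM in PON1-OE, and the sum of 4 leukocyte markers, nearly all of it *CD68*, was 206.4 to 226.5 and 224.1 to 248 CPM. Their part in the results was not tested.

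Reads were counted for 8 of the 10 genes in HCCLM3 cells, and *FGFR2* and *FGF19* were at 0 in every library. *FLRT3* and *FGFR1* were the members whose libraries did not overlap between the groups, and both were lower in PON1-OE. The other members with counts, including *FGFR4*, *FGFRL1* and *FRS2*, overlapped. The filter on low counts kept 7 of the 10 members, and of these 1 (*FLRT3*) passed an adjusted p of 0.05 by the quasi-likelihood test of edgeR, where 0.677% of all 11958 genes tested did, and 0.176% of all did so with lower values in PON1-OE. An unadjusted p under 0.05 was found for 2 of the 7 (*FLRT3* and *FGFR1*), against 11.1% of all genes and 5.17% with lower values in PON1-OE, and non-overlapping libraries for the same 2, against 16.1% of all genes. These shares are printed for scale only, since these differences were known when the members were chosen.

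**Figure D1:**
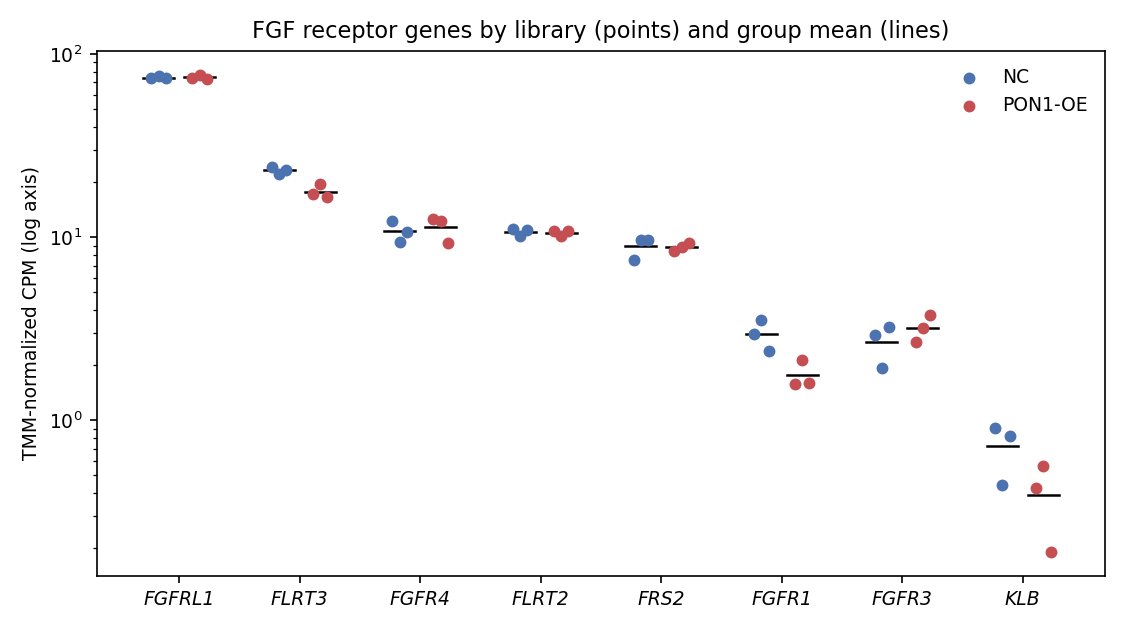
The 8 genes with counts (x axis) are shown by their TMM-normalized CPM in each library (points, y axis on a log scale) with the mean of each group of 3 (lines). The PON1-OE points of *FLRT3* (16.5 to 19.5 CPM) and *FGFR1* (1.58 to 2.13 CPM) all lie below the NC points, and the points of the other 6 genes overlap.

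To compare levels between genes, CPM was divided by the length of a gene's merged exons in kilobases (kb). On this scale *FGFRL1* was highest with 18 ± 0.369 (SD, n = 6), followed by *FLRT3* with 3.94 ± 0.618, *FGFR4* with 2.29 ± 0.308, *FRS2* with 1.23 ± 0.113 and *FGFR3* with 0.609 ± 0.127 CPM per kb. *FLRT2* with 0.305 ± 0.0115, *FGFR1* with 0.171 ± 0.0560 and *KLB* with 0.0919 ± 0.0439 CPM per kb were lowest. The libraries of neighbors in this order did not overlap except for *FGFR1* and *KLB*. The exons of *FLRT2* and *FGFR1* add up to 34899 and 13842 bases in GENCODE v29, and the median lengths of their protein-coding transcripts are 18478.5 and 4766 bases. With the median length of the protein-coding transcripts instead, the order was the same, but *FLRT3* overlapped with *FGFR4* (4.68 and 4.13 CPM per kb), and *FGFR3*, *FLRT2* and *FGFR1* overlapped in turn (0.693, 0.576 and 0.497). Among all genes tested, *FGFRL1* lay at the 77.5th percentile of the level per kb, *FLRT3* at the 41.6th and *FGFR4* at the 30.3rd.

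Among the kinase receptors, *FGFR4* (ENSG00000160867, GRCh38 chromosome 5, plus strand, 177086886 to 177098144) was the main one. It is the FGF19 receptor of hepatocytes. Its counts were 203, 170 and 182 in NC against 206, 196 and 146 in PON1-OE, in the order of the replicate numbers here and for later genes. The lowest PON1-OE library lay below every NC library and the highest above every one, with means of 10.8 ± 1.45 CPM in NC against 11.4 ± 1.78 CPM in PON1-OE (mean ± SD, n = 3). The log2FC was 0.08 (standard error 0.13).

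*FGFR3* (ENSG00000068078, plus strand of chromosome 4 from 1793293 to 1808872) was expressed at a low level. Its counts were 48, 35 and 55 in NC against 44, 51 and 59 in PON1-OE, so the groups overlapped. The means were 2.69 ± 0.672 and 3.21 ± 0.544 CPM (SD, n = 3 each), and the log2FC was 0.26 (standard error 0.23). *FGFR2* (ENSG00000066468, minus strand of chromosome 10 from 121478334 to 121598458), the receptor that epithelial and mesenchymal cells splice into different forms, had 0 counts in all 6 libraries. A count of 0 allows up to 3 counts, that is up to 0.192 CPM in the shallowest library, in counting error only.

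*FGFR1* (ENSG00000077782, minus strand of chromosome 8 from 38400215 to 38468834), the receptor for many paracrine FGFs such as FGF2, was the kinase receptor with the lower values in PON1-OE. It had 49, 64 and 41 counts in NC against 26, 34 and 25 in PON1-OE. No PON1-OE library reached the lowest NC library, although all counts were small. The level in CPM was 2.97 ± 0.567 in NC and 1.77 ± 0.310 in PON1-OE (SD, n = 3 each), so that PON1-OE held 59.5% of the NC mean, with a log2FC of −0.75 (standard error 0.25). Without single libraries the log2FC lay between −0.90 (PON1-OE replicate 2 left out) and −0.60 (NC replicate 2 left out). On the opposite strand *LETM2* shares 138 exonic bases with *FGFR1* in GENCODE v29, and whether counting used strand is not given in the sources used here. *LETM2* had 409, 467 and 419 counts in NC against 495, 462 and 433 in PON1-OE (log2FC 0.21, standard error 0.074, adjusted p = 0.269 by edgeR), and its part in the values of *FGFR1* was not tested.

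As shares of the summed level of *FGFR1* to *FGFR4* per kb of exon, *FGFR4* made up 74.4% ± 1.69 in NC and 74.6% ± 5.69 in PON1-OE (SD, n = 3 each). *FGFR3* made up 18.3% ± 3.27 in NC and 21.4% ± 5.51 in PON1-OE, with overlapping libraries. The share of *FGFR1* was 5.70% to 9.83% in the NC libraries and 3.50% to 4.59% in the PON1-OE libraries, and did not overlap. With median transcript lengths it was 9.63% to 15.8% in NC and 5.90% to 7.75% in PON1-OE. In bulk RNA, fewer cells that express a gene and less RNA per cell cannot be told apart.

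**Figure D2:**
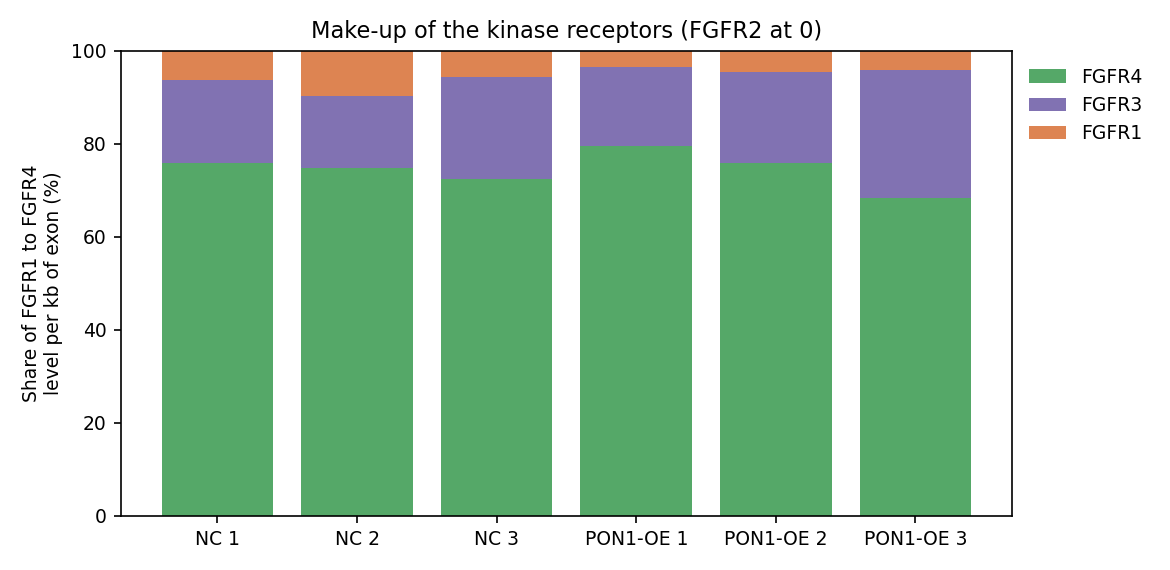
Each bar is 1 library (x axis), and its parts are the percent shares of *FGFR4*, *FGFR3* and *FGFR1* in the summed CPM per kb of exon of the 4 kinase receptors (y axis from 0 to 100%). *FGFR4* takes 68.4% to 79.6% of every bar, and the *FGFR1* part is 3.50% to 4.59% in PON1-OE against 5.70% to 9.83% in NC.

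*FGFRL1* (ENSG00000127418, plus strand of chromosome 4 from 1009936 to 1026897), which binds FGFs but lacks the kinase domain, was the most abundant and the most even member. Its counts were 1217, 1369 and 1259 in NC against 1221, 1234 and 1144 in PON1-OE. After scaling, the libraries lay between 73.0 and 77.2 CPM and overlapped (74.4 ± 1.11 CPM in NC, 74.9 ± 2.11 CPM in PON1-OE, SD, n = 3 each). The log2FC was 0.0085 (standard error 0.050), the smallest standard error among the members. Per kb of exon its mean was 4.57 times that of the next member.

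The liver FGF19 axis was sparse in these cells. *FGF19* (ENSG00000162344, minus strand of chromosome 11 from 69698232 to 69704642) had 0 counts in every library. *KLB* (ENSG00000134962, plus strand of chromosome 4 from 39406853 to 39451536), the co-receptor that FGF19 needs to act on FGFR4, had 15, 8 and 14 counts in NC against 7, 9 and 3 in PON1-OE. The groups overlapped, through NC replicate 2 and PON1-OE replicate 2. *KLB* was below the filter on low counts. In a fit without the filter its log2FC was −0.85 (standard error 0.58), and it ranged from −1.19 to −0.53 in the 4 fits without 1 library in which it passed the filter.

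*FGF19* lies in 11q13, where the listed neighbors ranged from strongly expressed to 0. *CCND1*, the gene of cyclin D1, had 485.5 CPM in NC against 487.1 CPM in PON1-OE, *MYEOV* 241 and 237 CPM, and *CTTN*, which encodes the actin-binding protein cortactin, 421 and 419 CPM. *LTO1* had 27.1 and 28.1 CPM, while *ANO1* and *SHANK2* had only 23 to 36 and 8 to 16 counts per library. *FGF3* and *FGF4* of the same region were at 0 in every library. Of 10 neighbors listed, 8 were tested, and 0 passed 0.05 by edgeR, with p adjusted or not. Their log2FC lay between −0.083 (*PPFIA1*) and 0.27 (*ANO1*).

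Of 15 genes of the bile acid axis that FGF19 acts on, 7 were tested. *CYP7A1*, the rate-limiting enzyme of bile acid synthesis, had 0 counts in every library, and *CYP27A1*, which starts the alternative route, had 61.8 CPM in NC against 64.3 CPM in PON1-OE. Of these 7, 0 passed an adjusted p of 0.05 by edgeR. An unadjusted p under 0.05 was found for 1 of the 7, a share of 14.3% beside 11.1% of all genes. This gene was *NR1H4*, which encodes the bile acid receptor FXR. Its counts were 57, 53 and 80 in NC against 37, 34 and 37 in PON1-OE, with no overlap (log2FC −0.71, standard error 0.23, adjusted p = 0.212). A heatmap of these libraries in the study, read here from its picture, includes *NR1H4* and *FGFR1*, so the place of *NR1H4* in the list is not independent evidence. *ABCB4*, a phospholipid export pump, had a log2FC of 0.44 (standard error 0.21, adjusted p = 0.451), and *SLC51B*, a subunit of a bile acid exporter, one of −0.17 (standard error 0.11, adjusted p = 0.613). The libraries of these genes did not overlap either, so 3 of the 7 were apart, beside 16.1% of all genes.

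Of the pair of FLRT genes in the set, *FLRT3* had lower values in PON1-OE and *FLRT2* had overlapping ones. *FLRT3* (ENSG00000125848, minus strand of chromosome 20 from 14322988 to 14337616) had 399, 400 and 397 counts in NC against 282, 312 and 259 in PON1-OE. The NC libraries lay close together and all PON1-OE libraries below them, with 23.2 ± 1.03 CPM in NC against 17.7 ± 1.57 CPM in PON1-OE (mean ± SD, n = 3). PON1-OE thus held 76.5% of the NC mean, a log2FC of −0.39 (standard error 0.087). Without single libraries the log2FC lay between −0.46 and −0.34. The adjusted p was then above 0.05 in 4 of 6 cases, by edgeR: 0.214 when NC replicate 1 was dropped, 0.215 for NC replicate 3, 0.144 for PON1-OE replicate 1 and 0.253 for PON1-OE replicate 3. *FLRT3* sits within an intron of *MACROD2*, which is read from the other strand and had 1 to 5 counts per library.

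*FLRT2* (ENSG00000185070, plus strand of chromosome 14 from 85530144 to 85654426) had 182, 183 and 186 counts in NC against 178, 162 and 169 in PON1-OE. Scaled, the libraries overlapped, at 10.7 ± 0.493 CPM in NC against 10.6 ± 0.395 CPM in PON1-OE (mean ± SD, n = 3), a log2FC of −0.012 (standard error 0.11). Within a library, the ratio of *FLRT3* to *FLRT2* counts, which needs no scaling, was 2.19, 2.19 and 2.13 in NC against 1.58, 1.93 and 1.53 in PON1-OE. The ratio was thus lower in each PON1-OE library than in each NC library.

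The stretches before the transcription starts of the pair are shown because the groups did not overlap for *FLRT3* and overlapped for its paralog *FLRT2*. They are the 250 bases upstream of the RefSeq start on GRCh38.p14, 5′ to 3′ in the direction of transcription, with each CpG in capitals. The *FLRT3* window is chr20:14337613-14337862 on the minus strand, and that of *FLRT2* is chr14:85529894-85530143 on the plus strand, before the first of the 3 starts listed for it.
FLRT3: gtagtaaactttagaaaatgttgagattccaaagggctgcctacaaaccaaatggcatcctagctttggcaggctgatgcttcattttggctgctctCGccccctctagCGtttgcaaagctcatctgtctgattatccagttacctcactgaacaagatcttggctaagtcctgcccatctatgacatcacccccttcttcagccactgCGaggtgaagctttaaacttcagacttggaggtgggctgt
FLRT2: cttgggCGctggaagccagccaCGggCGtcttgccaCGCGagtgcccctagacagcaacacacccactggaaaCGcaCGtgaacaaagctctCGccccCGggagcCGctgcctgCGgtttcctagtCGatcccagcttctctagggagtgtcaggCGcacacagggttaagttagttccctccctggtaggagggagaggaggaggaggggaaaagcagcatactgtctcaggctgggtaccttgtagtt

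The *FLRT3* window held 3 CpG and 47.6% G and C, and the *FLRT2* window 13 CpG and 60.4%, against a median of 11 CpG and 58% over the 35116 windows of the RefSeq table. Neither held the GC box GGGCGG on either strand, which 42.6% of all windows held. Of the 10 members, 8 were in the table. The first *FGFR4* window held 24 CpG and 7 GC boxes, the *FGFR3* window 40 CpG and 8 GC boxes, and the *KLB* window 5 CpG and 0 GC boxes. The first window of *FGFR2*, which had no counts, held 42 CpG. These letters describe the windows and no binding was measured.

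Of 10 FLRT relatives and partners, 5 were tested. Of these, 1 passed an adjusted p under 0.05 by edgeR, beside 0.677% of all genes. An unadjusted p under 0.05 was found for 2 of the 5 (*UNC5B* and *RND1*), a share of 40% beside 11.1% of all genes. The gene past the adjusted p was *UNC5B*, a receptor that netrins and FLRT proteins bind, and it rose. Its counts were 124, 139 and 122 in NC against 170, 189 and 172 in PON1-OE. All PON1-OE libraries lay above all NC libraries, with 7.45 ± 0.270 CPM in NC against 11.1 ± 0.737 CPM in PON1-OE (mean ± SD, n = 3), a log2FC of 0.57 (standard error 0.12, adjusted p = 0.0256 by edgeR). The adjusted p was above 0.05 when NC replicate 1 (0.0928) or 3 (0.177) or PON1-OE replicate 2 (0.0652) or 3 (0.113) was dropped, with the log2FC between 0.52 and 0.62. *RND1*, a small GTPase that binds FLRT3 in its cytoplasmic part, had a log2FC of 0.29 (standard error 0.13, adjusted p = 0.385) with overlapping libraries. Its counts were 219, 223 and 210 in NC against 276, 188 and 280 in PON1-OE, so PON1-OE replicate 2 was lowest of all, and without it the adjusted p was 0.0377. *RND3*, a related GTPase, was the most abundant per kb of the 10 and had a log2FC of −0.087 (standard error 0.063, adjusted p = 0.670). *FLRT1*, the FLRT gene outside the set, had 35, 36 and 37 counts in NC against 44, 57 and 36 in PON1-OE. After scaling, all its PON1-OE libraries lay above all NC libraries, at a low level (log2FC 0.44, standard error 0.24, adjusted p = 0.518). For the latrophilin gene *ADGRL1* all PON1-OE libraries lay below all NC libraries (log2FC −0.25, standard error 0.14, adjusted p = 0.556). Libraries were thus apart in 3 of the 5, 2 higher and 1 lower, beside 16.1% of all genes.

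**Figure D3:**
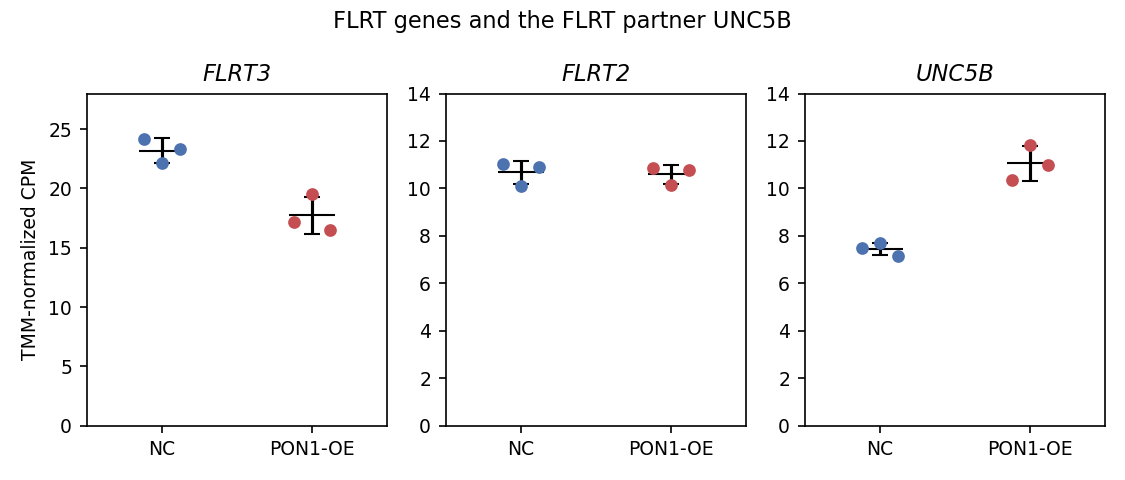
TMM-normalized CPM (y axis, from 0) of *FLRT3*, *FLRT2* and *UNC5B* in the 3 NC and 3 PON1-OE libraries (points), with the mean and SD of each group (bars). *FLRT3* is lower in all PON1-OE libraries (17.7 against 23.2 CPM on average), *UNC5B* is higher in all (11.1 against 7.45), and *FLRT2* overlaps (10.6 against 10.7).

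*FRS2* (ENSG00000166225, plus strand of chromosome 12 from 69470349 to 69579789), the docking protein through which active FGF receptors recruit the RAS pathway, had 124, 174 and 164 counts in NC against 138, 142 and 145 in PON1-OE. The PON1-OE libraries lay within the range of the NC libraries. The means were 8.91 ± 1.22 CPM in NC against 8.85 ± 0.428 CPM in PON1-OE (mean ± SD, n = 3), a log2FC of −0.014 (standard error 0.13), and NC replicate 1 was the lowest library at 7.51 CPM.

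**Figure D4:**
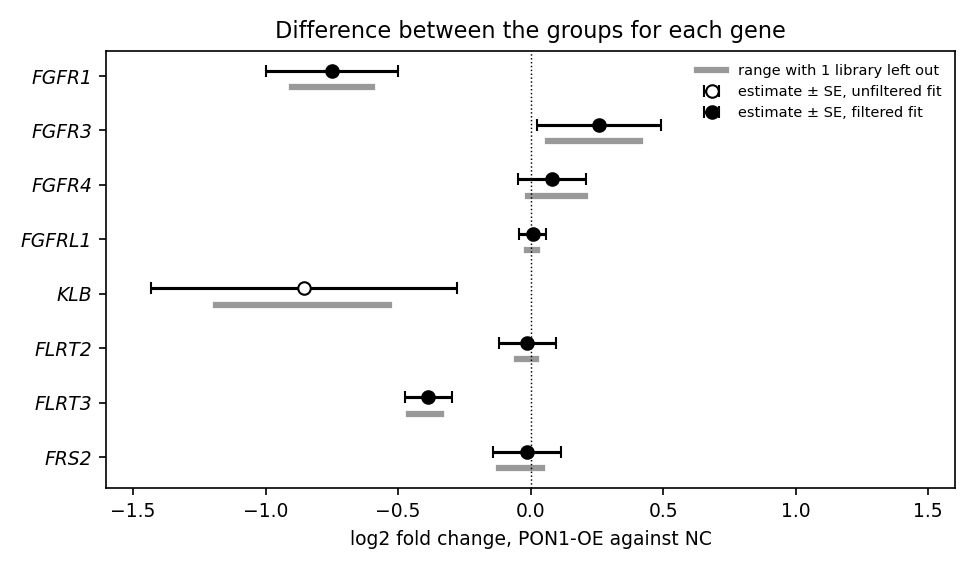
Points are the log2FC of PON1-OE against NC (x axis) of each gene with its standard error, from the fit with the filter on low counts (filled) or, for *KLB*, without it (open), and gray bars give the range when 1 library was left out. *FLRT3* at −0.39 and *FGFR1* at −0.75 stay below 0 in all of these, as does *KLB* in the fits in which it passed the filter. *FGFR3* stays above 0, whereas *FGFR4*, *FGFRL1*, *FLRT2* and *FRS2* reach both sides of 0.

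Further genes of FGF signaling were taken from a list of 138 genes arranged by role, of which 95 passed the filter and 28 had no count in any library. Earlier results of these data were known when the list was chosen, so the counts for it and its groups are given for scale only. By the same edgeR test 1 of the 95 had an adjusted p under 0.05 (*UNC5B*, higher), beside 0.677% of all genes. By adjusted p, limma-voom also called 1 (*UNC5B*) and DESeq2 1 (*DUSP6*), so that the groups without these genes had 0 by each tool. DESeq2 gave an adjusted p to only 52 of the 138 list genes, so its 0 covers no gene outside these. An unadjusted p under 0.05 was found for 13, 8 higher and 5 lower, a share of 13.7% beside 11.1% of all genes. The median log2FC was 0.03 against −0.0025 over all genes tested. The libraries did not overlap in 23 of the 95, 12 higher and 11 lower, beside 16.1% of all genes (995 higher and 926 lower).

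Few secreted ligands were expressed. Of 17 secreted FGFs other than *FGF19*, 10 had 0 counts in every library and 2 passed the filter. *FGF2*, a broad ligand of FGFR1 and other receptors, was the main one, with 761, 939 and 755 counts in NC against 890, 637 and 810 in PON1-OE, and the groups overlapped (log2FC 0.034, standard error 0.088, adjusted p = 0.929). *FGF7* had 8 to 20 counts and *FGF9* 1 to 5. Of the intracellular FGF homologous factors, which do not act through the receptors, *FGF13* had 67 to 94 counts and *FGF11* 32 to 55, with overlapping groups for both, and *FGF14* had at most 2.

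Of the cofactors at the cell surface, the syndecans *SDC4* and *SDC1*, which carry heparan sulfate chains, were highest per kb. Of 18 such genes 9 were tested, and 8 had 0 counts in every library, *KL*, *GPC3* and the syndecan gene *SDC2* among them. *SDC4* had 243.6 CPM in NC against 252.2 CPM in PON1-OE and *SDC1* 130.9 and 133.7 CPM. *SDC3*, a further syndecan, had 61.3 and 64.5 CPM (log2FC 0.073, adjusted p = 0.670) with libraries that did not overlap, and *CDH2*, the gene of N-cadherin, 73.2 and 72.5 CPM. The glypican gene *GPC1* had 87.4 CPM in NC against 91.3 CPM in PON1-OE. None of the 9 had an adjusted p under 0.05 (0 of 9). Libraries were apart in 2 of the 9, 1 higher and 1 lower, beside 16.1% of all genes. An unadjusted p under 0.05 was found for 1 of the 9, a share of 11.1% beside 11.1% of all genes. This was *FGFBP1*, a carrier that releases FGFs from the matrix (log2FC 0.49, standard error 0.23, adjusted p = 0.443, overlapping libraries). Of 12 enzymes that build or edit heparan sulfate, 9 were tested and 0 passed. *EXT1*, *EXT2* and *NDST1*, which elongate and modify the chain, had log2FC of 0.027, 0.066 and 0.032. *EXTL3*, a glycosyltransferase of the same family as the first 2, had one of 0.12 (adjusted p = 0.521). The libraries of *EXT2* and *EXTL3* did not overlap, with PON1-OE higher for both. *HS3ST1*, a sulfotransferase, was the 1 of the 9 with an unadjusted p under 0.05, a share of 11.1% beside 11.1% of all genes. Its PON1-OE libraries (44 to 64 counts) lay below its NC libraries (72 to 80 counts), with a log2FC of −0.40 (standard error 0.19, adjusted p = 0.442). Libraries were thus apart in 3 of the 9 enzymes, 2 higher and 1 lower, beside 16.1% of all genes.

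Downstream of the receptors, all 26 adaptor and kinase genes were tested and 0 passed an adjusted p of 0.05 by edgeR, while 1 higher and 3 lower genes had an unadjusted p under 0.05, that is 15.4% beside 11.1% of all genes. *MAP2K2*, the MEK2 kinase gene, had 80.8 ± 1.75 CPM in NC against 72.3 ± 2.25 CPM in PON1-OE (mean ± SD, n = 3), a log2FC of −0.16 (standard error 0.051, adjusted p = 0.2). *CRK*, an SH2 adaptor gene, had a log2FC of −0.16 (standard error 0.051, adjusted p = 0.217). For both genes PON1-OE and NC libraries were apart, as in 6 of the 26 in all, 1 higher and 5 lower, beside 16.1% of all genes. *SHC1*, *GRB2* and *HRAS* were the most abundant per kb in this group and had log2FC of 0.043, −0.030 and 0.029.

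Of 14 feedback inhibitors 13 were tested and 0 had an adjusted p under 0.05. *DUSP6*, the phosphatase that switches off ERK, came nearest and was the 1 of 13 with an unadjusted p under 0.05 (7.69% beside 11.1% of all genes). It had 3791, 4357 and 3861 counts in NC against 4136, 4156 and 4108 in PON1-OE, and after scaling all PON1-OE libraries lay above all NC libraries. Its levels were 232.3 ± 7.60 CPM in NC against 258 ± 5.47 CPM in PON1-OE (mean ± SD, n = 3), a log2FC of 0.15 (standard error 0.039, adjusted p = 0.0858). Without NC replicate 2 the adjusted p was 0.0462, and without the filter on low counts it was 0.0335, and DESeq2 gave 0.0153. In the other alternative fits the adjusted p stayed above 0.05. By edgeR it was 0.356 without NC replicate 1, 0.388 without NC replicate 3 and 0.350 without PON1-OE replicate 3. *DUSP4* had a log2FC of −0.072 (adjusted p = 0.496) and *DUSP5* one of 0.060 (adjusted p = 0.578), both with libraries that did not overlap. With *DUSP6*, libraries were apart in 3 of the 13, 2 higher and 1 lower, beside 16.1% of all genes. *PEBP1*, which encodes an inhibitor of RAF and was the most abundant per kb of the group, had 226.8 CPM in NC against 228.5 CPM in PON1-OE (log2FC 0.012). The Sprouty genes *SPRY1*, *SPRY2* and *SPRY4* had log2FC of −0.20, −0.023 and 0.036. *SPRY3*, at 7 to 18 counts, had one of 0.55. The libraries of all Sprouty genes overlapped.

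Of 15 transcriptional targets of the pathway all were tested, 0 had an adjusted p under 0.05, and 3 had an unadjusted p under 0.05, all 3 higher. Of all genes, 11.1% had such a p, 707 higher and 618 lower. *ETV5*, an ETS factor gene induced by FGF signaling, had 100.8 ± 4.15 CPM in NC against 112 ± 1.55 CPM in PON1-OE (mean ± SD, n = 3), a log2FC of 0.15 (standard error 0.046, adjusted p = 0.180). *FOSL1*, an AP-1 subunit gene, had a log2FC of 0.10 (standard error 0.037, adjusted p = 0.294). For both, all PON1-OE libraries lay above all NC libraries. Libraries were apart in 3 of the 15, all 3 higher, beside 16.1% of all genes. *MYC* (log2FC −0.022) and *JUN* (log2FC −0.00054) overlapped between the groups.

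**Figure D5:**
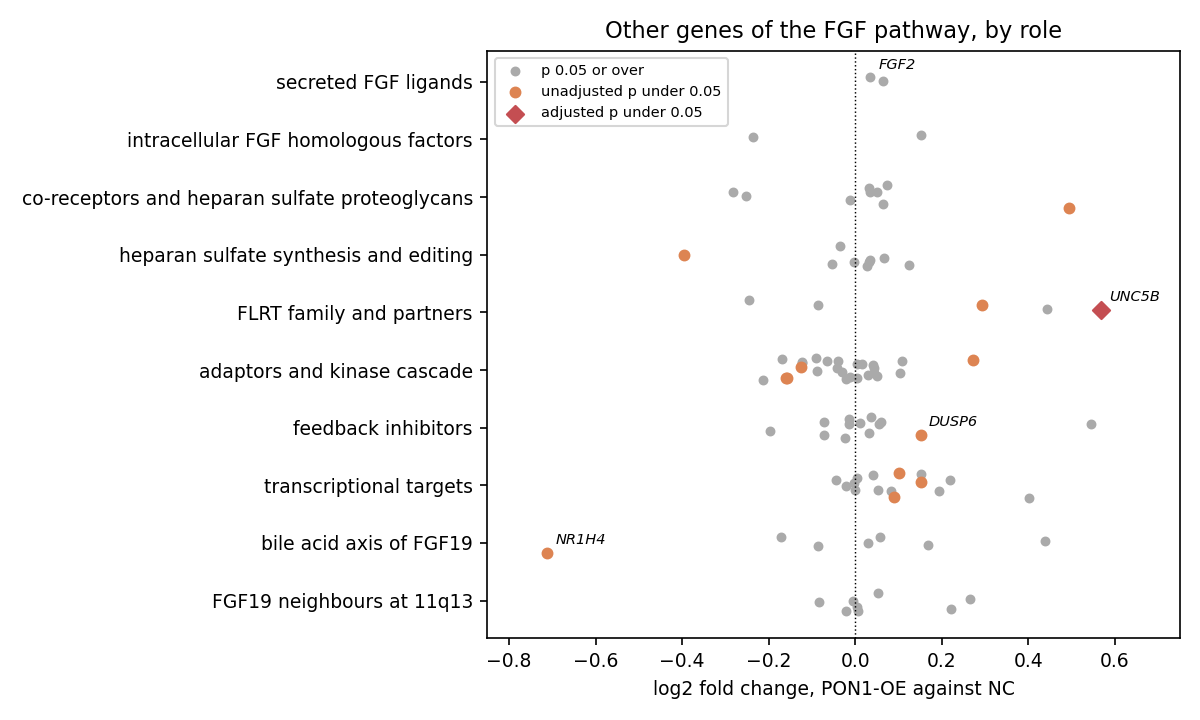
Each point is 1 tested gene of the list (rows by role, with a small random vertical shift) at its log2FC of PON1-OE against NC (x axis), gray for an unadjusted p of 0.05 or over, orange under 0.05 and a red diamond for an adjusted p under 0.05. *UNC5B* at 0.57 is the only red point, *DUSP6* lies at 0.15, and *NR1H4* at −0.71 is farthest to the left.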

How the data were processed

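RNA-seq was performed on 3 NC and 3 PON1-OE libraries. The authors deposited 1 table of estimated counts per gene, not normalized, in which 10.5% of values were not whole. The submitters' processing notes name Bowtie2 2.2.8, HISAT2, StringTie 1.3.1 and DESeq2, and the genome build and annotation are not given in the sources used here. Exon lengths and gene coordinates were taken by Ensembl identifier from GENCODE v29 (20126 of 20381 genes), and upstream windows from RefSeq.

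Counts were rounded, and edgeR 4.0.16 was run under R 4.3.3 (filterByExpr, TMM, glmQLFit and glmQLFTest) across all genes, with Benjamini-Hochberg adjustment over the 11958 genes tested. Standard errors are |log2FC| divided by the square root of the quasi-likelihood F. The design had been set for counts, and rounding was added. The members and lists were chosen with earlier results of these data known. Named were all members, *PON1*, and in each list group genes with an adjusted p under 0.05, the 3 highest per kb and the 2 with the smallest p. *FLRT1*, *ADGRL1*, *GPC1*, *GPC3*, *SDC2*, *KL*, *CYP7A1*, *FGF3*, *FGF4*, *LTO1*, *SHANK2*, *SPRY1*, *SPRY2*, *SPRY3*, *SPRY4*, *LETM2* and *MACROD2* were named after their values were seen. Libraries of a group differed by more than sampling noise (chi-square per degree of freedom 2.11 to 4.11, low counts left out). Alternatives were DESeq2 1.42.0, limma-voom (limma 3.58.1), a replicate block, RLE scaling, the filter left off or set to 10 counts per library, the study's fold threshold in addition, each library left out, and, added after the data were seen, median transcript lengths. Floors cover counting error only.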

Additional observations from a re-analysis of the deposited data

How the results depend on the processing

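*FLRT3* and *FGFR1* kept a negative log2FC in all 12 alternative fits, from −0.46 to −0.34 and from −0.90 to −0.60. The count of members with an adjusted p under 0.05, which was 1, was 0 with limma-voom, 0 with the replicate block, 0 with the study's fold threshold in addition, and 0 to 1 when single libraries were left out. DESeq2 gave an adjusted p to 1 of the members, *FGFRL1*, and so no count. The count of members with an unadjusted p under 0.05 was 2, became 1 with the fold threshold and was 2 in the other alternatives. For the pathway list the count with an adjusted p under 0.05 was 1, and it became 2 without the filter on low counts (*UNC5B* and *DUSP6*), 0 with the replicate block, 0 with the fold threshold, and 0 to 2 when single libraries were left out. DESeq2 also counted 1, but this was *DUSP6*, and *UNC5B* had no adjusted p there (unadjusted p = 0.00053). The list's count with an unadjusted p under 0.05 was 13, with 1 past the fold threshold and 7 to 17 when single libraries were left out, the 7 without NC replicate 3. The cause was not tested. Same-numbered libraries of the groups did not deviate together (r = 0.0301, −0.0567 and −0.0154), so the numbers were not taken as pairs and the block is given only here. Depth limits *KLB* and *FGFR1* most, at 3 to 15 and 25 to 64 counts per library.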
